A study of Mus musculus with 2 samples.

Results

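Thrombospondin 1 (Thbs1) and 4 genes for its cell-surface receptors, Cd36, Cd47, Itgav and Itgb3, were examined in bone marrow-derived macrophages (BMDMs) given the supernatant of apoptotic cells. These 5 genes were chosen by name, with earlier results of these data known. In its own microarray comparison the study had listed Thbs1 as higher with the supernatant, so that reading was known beforehand. The array holds 18194 genes with a probe set of their own, and every probe set that its annotation gives the 5 genes was read. There were 17 such probe sets, 2 for Thbs1 and 15 for the receptors, and 1 more, annotated to Pald1 as well as Thbs1, was kept apart. The question was whether the mRNA of a secreted ligand and the mRNAs of the receptors that bind it differed together between medium and supernatant.

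Thrombospondin 1 is a large glycoprotein that is secreted into the extracellular matrix and bound there by several receptors at once. CD36, a class B scavenger receptor, binds its type 1 repeats, CD47 binds its C-terminal part, and the integrin alpha v beta 3, a dimer of the Itgav and Itgb3 products, binds its RGD sequence. In macrophages the protein is known as a bridge that ties apoptotic cells to CD36 and alpha v beta 3, and as an activator of latent TGF-beta.

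Both groups were BMDMs from female C57BL/6J mice aged 8 weeks, grown for over 7 days with M-CSF, and no allele or transgene is given for either. One group stood for 1 hr in medium, which the labels describe as RPMI with 10% FCS. The other stood for 1 hr in the supernatant of W3 cells, a Fas-bearing line of mouse T cells, after these cells had received Fas ligand for 30 min and had then been left in RPMI with 1% FCS for 60 min. Each group is 1 array, so no difference below has an SD or a p-value. No array for the supernatant of living W3 cells was analysed here. Effects of apoptosis, of W3-conditioned medium and of the serum content therefore cannot be told apart by these arrays. For Thbs1 the paper reports RT-PCR in BMDMs, where supernatant of apoptotic W3 cells raised it strongly and that of healthy ones did not. It also reports that a caspase inhibitor given to the W3 cells removed this effect.

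Signals were MAS5 intensities on a linear scale, 1 per probe set, and their 2% trimmed mean was 500 on both arrays. A floor for dim signals of 38.4 was taken from 80 probe sets of olfactory and vomeronasal receptors, as the 95th percentile of the array where it was higher. A gene counted as measured when at least 1 array was above the floor, which left 11977 genes, and lower signals were raised to the floor, so that a ratio with such a signal is a lower bound. Over these genes log2 ratios, supernatant over medium, lay between -0.55 and 0.50 from the 5th to the 95th percentile, around a median of -0.02. All 8 macrophage markers examined were measured, with medium signals from 471 to 32154, and of 8 T cell markers 6 were under the floor on both arrays, Cd3d, Cd3e and Cd3g among them. The other T cell markers were Zap70, a kinase of T cell receptor signalling, which read 208 and 313 with medium and supernatant, and Cd28, a costimulatory receptor, which read 393 and 283.

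Thbs1 was the only one of the 5 genes to read at least 2-fold higher with the apoptotic cell supernatant, and none read 2-fold lower. Its brighter probe set, 1460302_at, read 56.2 with medium and 1175 with the supernatant, a ratio of 20.9, or 4.39 on the log2 scale. The second, 1450377_at, read 47.5 and 420, a ratio of 8.84, and the log2 ratios of the 2 probe sets differed by 1.24. Over all measured genes the share past 2-fold was 0.960% upward and 0.843% downward, and over all measured probe sets it was 1.04% and 1.22%. Among the 11977 measured genes the Thbs1 ratio was the 6th highest with signals floored. In RNA of the whole culture, fewer cells of a type and less RNA per cell cannot be told apart.

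**Figure D1:**
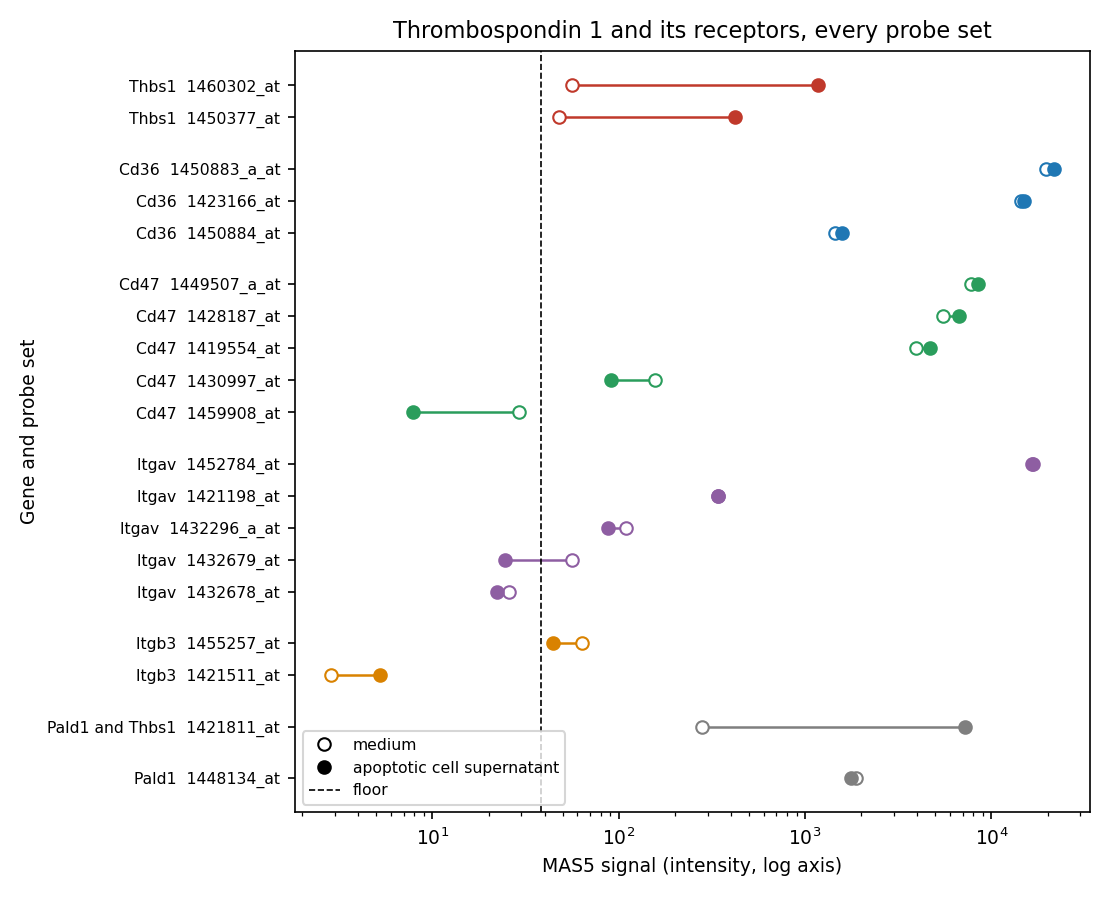
MAS5 signal (intensity, log axis) of every probe set of the 5 genes, of the one annotated to Pald1 and Thbs1 together, and of the one of Pald1 alone, as open circles for medium and filled circles for the supernatant, 1 array each; the dashed line is the floor of 38.4. The Thbs1 probe sets run from 56.2 to 1175 and from 47.5 to 420, while the brightest probe sets of Cd36, Cd47 and Itgav have nearly overlapping circles.

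Both Thbs1 signals with medium stood only a little above the floor. They were also under 62.4, the highest signal of the olfactory and vomeronasal receptor probe sets on that array, so the medium level of Thbs1 was near the level of genes that macrophages are taken not to express. With signals under 62.4 set to it, the ratios were at least 18.8 and at least 6.72. The signals with the supernatant did not have this limit, since no olfactory or vomeronasal receptor probe set read above 44.7 on that array.

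The probe set that Pald1 and Thbs1 share, 1421811_at, read 278 with medium and 7198 with the supernatant, a ratio of 25.9. It cannot be given to either gene by its annotation. Pald1, which encodes a phosphatase domain-containing protein, has a probe set of its own that read 1887 and 1754, a ratio of 0.930. The ratio of the shared probe set was above those of both Thbs1 probe sets, 20.9 and 8.84, and its medium signal was above both 38.4 and 62.4.

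Cd36 had 3 probe sets, all above the floor on both arrays. The brightest, 1450883_a_at, read 19706 with medium and 21565 with the supernatant, a ratio of 1.09. The second, 1423166_at, read 14449 and 14931, and the third, 1450884_at, read 1455 and 1576, which are ratios of 1.03 and 1.08. All 3 were slightly higher with the supernatant, and the log2 ratio of the gene stood at percentile 77.2 of all measured genes.

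Cd47, a ubiquitous surface protein that also binds SIRP alpha on phagocytes, had 5 probe sets, and 3 of them were bright. The brightest, 1449507_a_at, read 7771 with medium and 8463 with the supernatant, a ratio of 1.09. The next, 1428187_at, read 5518 and 6676, a ratio of 1.21. The third, 1419554_at, read 3933 and 4699, a ratio of 1.19. The 3 bright probe sets agreed in direction, and the dim ones did not follow them. The probe set 1430997_at read 156 and 90.4, a ratio of 0.579, and 1459908_at was under the floor on both arrays (29.2 and 7.86).

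Itgav, the alpha v subunit that pairs with several beta subunits, had 5 probe sets. The brightest, 1452784_at, read 16478 with medium and 16672 with the supernatant, a ratio of 1.01. The next, 1421198_at, read 342 and 341, a ratio of 0.996. These 2 were nearly equal on the arrays, and the other 3 were dim. The probe set 1432296_a_at read 109 and 87.7, 1432679_at read 55.8 and 24.4, the latter under the floor, and 1432678_at was under it on both arrays.

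Itgb3, the beta 3 subunit, was dim. Its probe set 1455257_at read 63.4 with medium and 44.1 with the supernatant, a ratio of 0.696. These signals lay within about 1 unit of the highest olfactory and vomeronasal receptor signals, which were 62.4 and 44.7. The other probe set, 1421511_at, read 2.85 and 5.20. By these probe sets the partner of alpha v in alpha v beta 3 was thus barely above the background of the array in either group, and with the floor at 62.4 its log2 ratio of -0.52 was -0.023.

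RefSeq start site windows, from 250 bases before to 50 after an annotated start on GRCm38.p6, were listed for Cd36, Cd47 and Itgav. They are shown because adenosine, whose receptors the study examined, raises cyclic AMP through receptors of the A2 type, and these receptor genes can be searched for the cAMP response element. No window for Thbs1 or Itgb3 was in the source used here, so neither of them was searched. The full element, TGACGTCA, was in none of the 3 windows, and 1.79% of all 32851 windows hold it. Its 5-base part TGACG, searched as TGACG and CGTCA, is in capitals and was in the Cd47 window only, where 2 adjoining matches begin 79 and 74 bases before the start. It was in 20.8% of all windows, full elements included. A match describes letters and not a bound site, and Cd47 has a second annotated start 7 bases away with the same matches. The windows are chr5:17835847-17836146 on the minus strand for Cd36, chr16:49855404-49855703 on the plus strand for Cd47 and chr2:83724147-83724446 on the plus strand for Itgav.
Cd36: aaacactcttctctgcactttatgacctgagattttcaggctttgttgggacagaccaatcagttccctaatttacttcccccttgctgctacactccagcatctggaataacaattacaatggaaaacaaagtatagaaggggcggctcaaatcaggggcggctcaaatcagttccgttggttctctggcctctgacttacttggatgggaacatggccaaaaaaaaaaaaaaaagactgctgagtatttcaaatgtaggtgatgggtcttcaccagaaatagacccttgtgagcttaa
Cd47: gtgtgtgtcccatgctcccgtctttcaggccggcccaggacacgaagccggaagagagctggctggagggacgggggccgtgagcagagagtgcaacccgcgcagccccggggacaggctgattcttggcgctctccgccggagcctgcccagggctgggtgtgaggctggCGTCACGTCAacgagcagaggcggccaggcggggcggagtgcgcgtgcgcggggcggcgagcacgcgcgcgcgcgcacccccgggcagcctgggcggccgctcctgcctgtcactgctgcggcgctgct
Itgav: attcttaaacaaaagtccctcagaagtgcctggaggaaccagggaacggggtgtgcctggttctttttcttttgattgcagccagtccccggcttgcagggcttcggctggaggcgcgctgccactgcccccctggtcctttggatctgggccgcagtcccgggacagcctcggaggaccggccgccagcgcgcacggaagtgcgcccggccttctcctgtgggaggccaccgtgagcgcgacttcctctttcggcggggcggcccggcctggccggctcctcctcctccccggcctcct

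Set against each other, the ligand and its receptors differed in their ratios on these arrays. The median log2 ratio of the 4 receptors was 0.07, and that of Thbs1 exceeded it by 4.32, which is a ratio of ratios of 19.9. The dimmer Thbs1 probe set still exceeded the highest receptor probe set, the Cd47 one with a log2 ratio of 0.27, by 2.87 on the log2 scale. None of the 12 receptor probe sets above the floor on at least 1 array reached 2-fold with signals floored, and the 3 others were under the floor on both. For Itgav 1432679_at, at least 1.45-fold lower, this rests on the floor, since its signals as deposited give a log2 ratio of -1.20, or 2.29-fold lower. As a yardstick that is not a replicate error, the 2 brightest probe sets of a gene were compared. Only pairs above the floor on both arrays were used, from 5196 genes. The SD of their difference in log2 ratio, divided by the square root of 2, was 0.25 per probe set.

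The receptor probe sets divided by brightness. The 8 with a mean signal of 300 or more had log2 ratios from -0.01 to 0.27, and the 4 dimmer ones had log2 ratios from -0.79 to -0.31, of which the -0.54 of Itgav 1432679_at is a bound, with -1.20 as deposited. Over the whole array the spread of log2 ratios was also wider where signals were dim. Among 2840 probe sets with a mean signal of 3000 or more, the 5th and 95th percentiles were -0.17 and 0.19, and among 5913 with a mean from 100 to 300 they were -0.69 and 0.54. Both bright Cd36 probe sets and that of Itgav lay inside the range for their brightness. Of the 3 bright Cd47 probe sets, 2 lay above the 95th percentile of theirs, with log2 ratios of 0.27 and 0.26, and the dim one at -0.79 lay below the 5th percentile of its range. The Itgb3 probe set lay inside the range of its own, from -0.93 to 0.77. Thbs1 had the highest log2 ratio of the 5913 on its dimmer probe set, and the 2nd highest of 5890 with a mean signal from 300 to 1000 on its brighter one. Both Thbs1 probe sets reached these ranges only through their supernatant signals. Their medium signals were under 100, where the spread was the wider one from -0.93 to 0.77, so these ranks are a description only.

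**Figure D2:**
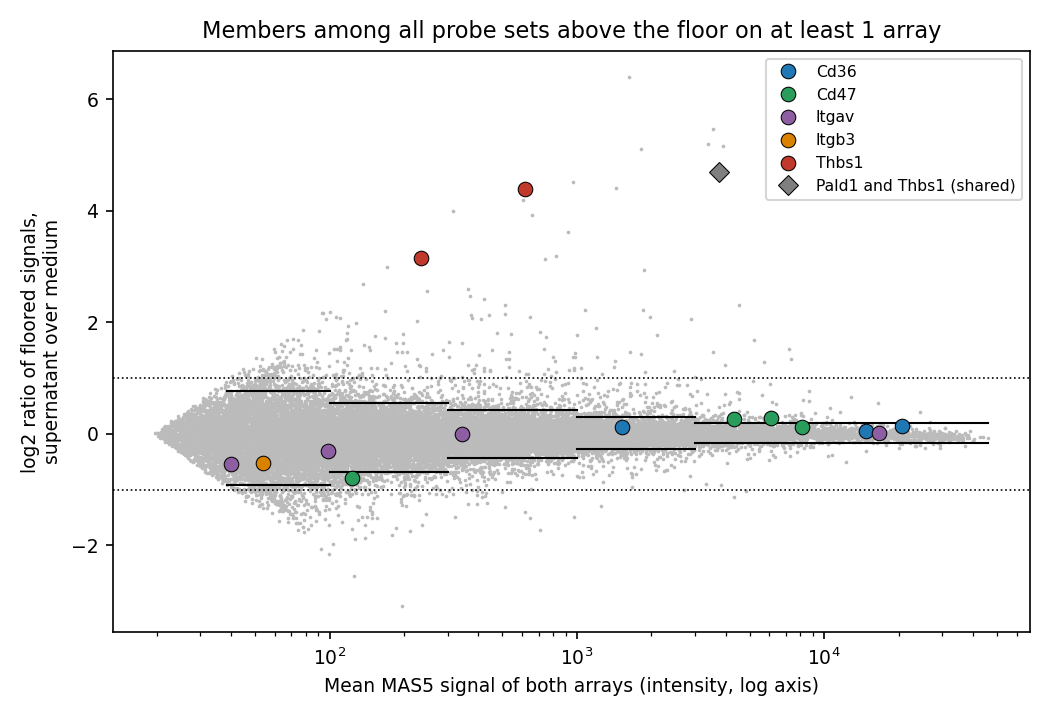
Log2 ratio (supernatant over medium, signals floored) against the mean signal of both arrays (intensity, log axis), for the 26487 probe sets above the floor on at least 1 array (grey) and the probe sets of the 5 genes (coloured); black lines are the 5th and 95th percentiles in ranges of brightness and dotted lines mark a 2-fold difference. The Thbs1 points, at 4.39 and 3.14, and the shared probe set, at 4.69, stand far above the receptor points, which lie between -0.79 and 0.27.

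The other members of the thrombospondin family gave almost no signal. Thbs2, Thbs3 and Thbs4 did not reach the floor on either array, and Comp, the cartilage member, read 42.8 with medium and was under the floor with the supernatant. Of 60 measured genes in the lists of related genes, with the 5 genes left out, none reached 2-fold in either direction with signals floored, against 0.960% and 0.843% of all measured genes. Their median log2 ratio was -0.03, beside -0.02 over all measured genes. With shares of that size over all genes, a count of 0 among 60 is no result about the lists.

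Among 12 measured further receptors and partners of thrombospondins the median log2 ratio was 0.02. Itga2b, the alpha IIb subunit that pairs with beta 3 on platelets, read 228 with medium and 126 with the supernatant, a log2 ratio of -0.86. Itga3 read 59.3 and was under the floor with the supernatant, and Itga4, the alpha 4 subunit, read 1714 and 2400, a ratio of 1.40. The 4 measured Itga4 probe sets had log2 ratios from -0.16 to 0.71. Some receptors were named after their values were seen. Sirpa, the phagocyte partner of CD47, read 12000 and 12192, Lrp1, an endocytic receptor, read 8682 and 8797, and Calr, which acts with Lrp1 in thrombospondin binding, read 11749 and 11854. The ratios of these 3 were 1.02, 1.01 and 1.01.

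Other beta subunits can join alpha v in the absence of beta 3. Itgb5 read 5451 with medium and 5211 with the supernatant, Itgb1 read 1604 and 1430, and Itgb6 and Itgb8 were under the floor on both arrays. Across 10 measured leukocyte and matrix integrin subunits, the median log2 ratio was -0.09 and the lowest was that of Itgb7, at -0.32. Itga5, the fibronectin receptor subunit, read 440 and 370, and its 4 measured probe sets had log2 ratios from -0.66 to 0.03.

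Of 14 measured signalling partners of CD36 and CD47, with a median log2 ratio of 0.00, Tlr6 and Tlr2, Toll-like receptors that act with CD36, had the largest differences and opposite signs. Tlr6 read 114 with medium and 69.9 with the supernatant, and Tlr2 read 2565 and 3755, a ratio of 1.46. Syk, a tyrosine kinase downstream of immune receptors, read 982 and 728, a ratio of 0.741. Its 4 measured probe sets had log2 ratios from -0.43 to 0.07, and the one given is the lowest.

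Latent TGF-beta is the best known target of thrombospondin 1, and 9 genes of TGF-beta and its activation were measured, with a median log2 ratio of 0.14. Tgfb1, named after its values were seen, read 1077 with medium and 1044 with the supernatant, a ratio of 0.969. Ltbp4, a latent TGF-beta binding protein, read 50.4 and 84.5, a ratio of 1.68. Its medium signal was under 62.4, the highest olfactory and vomeronasal receptor signal on that array. Tgfb3 read 124 and 163. Mmp9, a matrix protease, read 65.2 and 8.42, the latter under the floor, which leaves it at least 1.70-fold lower. Its medium signal was only a little above 62.4. Its 2 measured probe sets had log2 ratios from -0.76 to -0.16 with signals floored, and the one given is the lower.

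Other matrix proteins that alpha v integrins bind, or that act beside thrombospondin 1, were mostly not detected, with 10 of 16 under the floor on both arrays. The measured ones included very bright genes, named after their values were seen. Lgals3 read 29845 with medium and 28914 with the supernatant, and Tgfbi read 19859 and 18772. Tnc, tenascin C, read 93.4 with medium and 169 with the supernatant, a ratio of 1.80. Fn1, fibronectin, read 51.0 and 60.9, and Edil3, a ligand of alpha v integrins, read 385 and 325. Mfge8, which bridges phosphatidylserine to alpha v integrins and was named after its values were seen, read 930 and 908.

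Proteins that share the type 1 repeat with thrombospondin 1 had a median log2 ratio of -0.26 over 10 measured genes. Of these, 8 had a mean signal under 100. That median falls between Adamtsl4 and Spon1, which were both under the floor with the supernatant, so it is set by the floor. All measured probe sets with a mean from 38.4 to 100 had a median of -0.11. Most of the 8 had a mean under 38.4, however, and lay outside that range. Spon2, a matrix protein of the spondin family, read 54.8 with medium, Adamts1, a secreted protease, read 51.4, and Adgrb1, known as the phosphatidylserine receptor BAI1, read 47.6. All 3 were under the floor with the supernatant. Their medium signals were also under 62.4, the highest olfactory and vomeronasal receptor signal on that array.

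**Figure D3:**
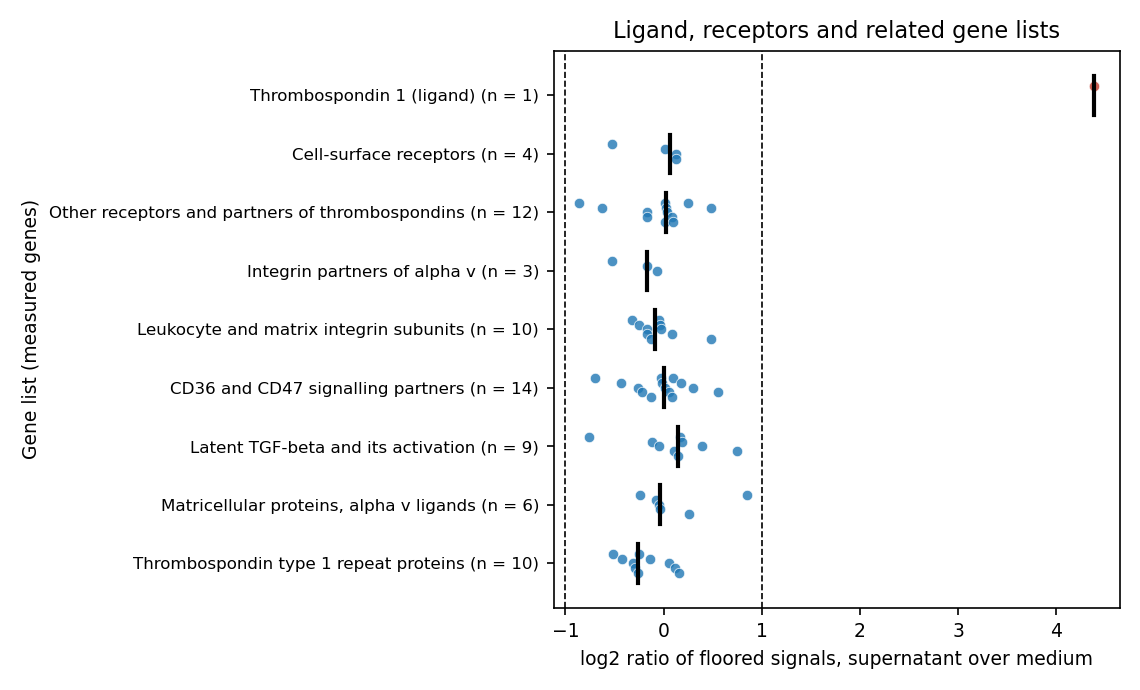
Log2 ratio (supernatant over medium, signals floored) of each measured gene (points) of Thbs1, its receptors and 7 lists of related genes, with the median of each as a black bar; the dashed lines mark 2-fold, and some genes stand in more than 1 list. Thbs1 lies at 4.39, and every other gene lies between -0.86 and 0.85.

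With signals floored, the genes whose ratios were nearest to that of Thbs1 were Nr4a1 and Il1b above it and Nr4a3 and Egr2 below it. The likeness is that of 1 log2 ratio, over 2 arrays. Il1b, which encodes interleukin 1 beta, was higher by 0.12 on the log2 scale, and Nr4a1, an orphan nuclear receptor, by 0.78. Nr4a3, a nuclear receptor of the same family, read 20.3 and 613 and was at least 16.0-fold higher, so that its place below Thbs1 is set by the floor, and Egr2, a zinc finger transcription factor, was 12.2-fold higher. Without replicates neighbours in this order cannot be separated.

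Thbs1, Cd36 and Itgb3 are also genes of platelets, Itgb3 is a gene of osteoclasts, and Thbs1 is made by endothelial and stromal cells. Of 7 platelet and megakaryocyte markers with a probe set, 5 were measured and Gp9 and Gp6 were under the floor on both arrays. Sums here are over all markers of a type with a probe set, those under the floor included. For platelets and megakaryocytes the sums were 12968 in medium and 13809 in supernatant, nearly all from Pf4, which macrophages also express. Of 6 endothelial markers 2 were measured, and all 6 summed to 421 and 341. Of 7 stromal markers only Col1a2 was measured, at 41.6 and 48.3, and all 7 summed to 77.4 and 159. The rest of these stromal sums is from signals under the floor. Of 8 osteoclast markers 6 were measured, and all 8 summed to 1110 and 1071. Of the 8 T cell markers 2 were measured, and all 8 summed to 676 and 642. With signals floored none of these markers reached 2-fold, but Mmp9 is only bounded, at 1.70-fold lower or more, as are Gp5, at least 1.47-fold higher, Ocstamp, at least 1.49-fold higher, and Cdh5, at least 1.35-fold lower. With the floor as a pseudocount Mmp9 was past 2-fold lower. The part of these markers in the Thbs1 ratio was not tested. Of the macrophage markers Mertk, a receptor for bridged apoptotic cells, read 471 and 1050, a ratio of 2.23, and the other 7 were within 2-fold.

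The processing changed the size of the Thbs1 ratio and not the order of ligand and receptors. Across 10 other settings its log2 ratio ran from 3.68 to 4.69. In each of them where a receptor had a ratio, that ratio was under 2-fold in both directions. With all probe sets of a gene averaged, Cd47 and Itgav had log2 ratios of -0.41 and -0.34 in place of 0.12 and 0.02, since their dim probe sets then count as much as the bright ones.

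**Figure D4:**
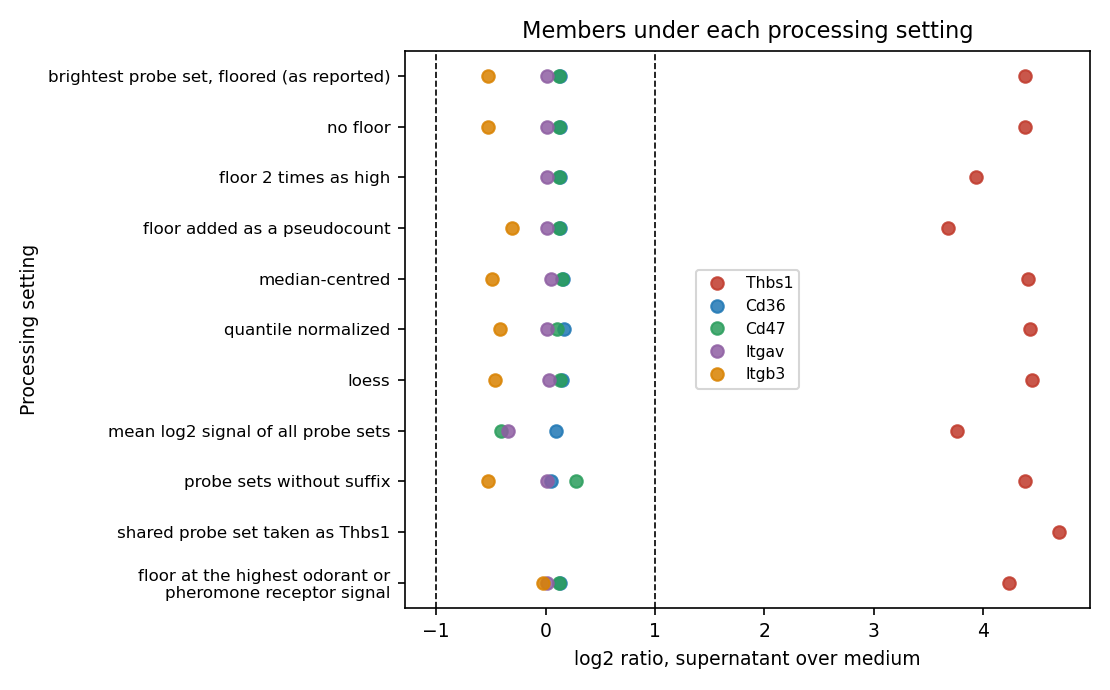
Log2 ratio of supernatant over medium for each of the 5 genes under the reported setting and 10 others, with dashed lines at a 2-fold difference; Itgb3 has no point where both of its signals fell under the floor, and only Thbs1 is drawn where the shared probe set stands for it. Thbs1 lies between 3.68 and 4.69 in every row, and no receptor lies outside the dashed lines.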

How the data were processed

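RNA from BMDMs in medium and in apoptotic cell supernatant was hybridized as biotin-labelled cRNA to an Affymetrix Mouse Genome array, 1 array per group. What the authors deposited was the MAS5 intensity of each of 45101 probe sets, linear and scaled by 1 factor per array. Further settings and a genome build are not given in the sources used here, and detection calls were not used. The number of arrays limits the precision.

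Groups came from the labels. The array's annotation gave 34958 probe sets a single gene, 932 several genes, and did not list 9211. Symbols were looked up by Entrez identifier in RefSeq (34754 found, 0 altered). A gene was read by its brightest single-gene probe set. Named are the 5 genes with every probe set, the measured genes of each list that reached 2-fold or had the 3 largest differences, the 4 genes nearest to Thbs1 in ratio, and defining markers. The members and lists were chosen with earlier results of these data known. Some listed genes had no single-gene probe set and were not analysed here.

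With 1 array per group no test was run. Alternatives were other floors (none, 76.8, 62.4, or the floor as a pseudocount), scalings (median, quantile, loess with a span of 30%) and choices of probe set. The steps were tested on simulated data in which only genes with a medium signal well above the floor were altered. Ratios that start near the floor, such as those of Thbs1 and Itgb3, were not covered by it. Tools were pandas 2.3.3 and numpy 2.4.6 under Python 3.11.15, statsmodels 0.14.6 for loess and matplotlib 3.10.9 for plots, and promoter windows came from RefSeq on GRCm38.p6.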

Additional observations from a re-analysis of the deposited data

How the results depend on the processing

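No paired analysis was possible because each group has 1 array and no test was run. Of 106 probe set values of the 5 genes under other settings, 99 moved by less than the SD of 0.25 per probe set. Another floor can hardly move bright signals, so for the bright receptor probe sets this count was largely fixed. The 7 that moved further belonged to Thbs1, Itgb3 and a dim Itgav probe set. The dimmer Thbs1 probe set went from 3.14 to 2.45 with the floor at 76.8. From a 2-fold difference 0 turned direction, but only Thbs1 had started past 2-fold. Itgav 1421198_at, at -0.006 as reported, changed sign to 0.024, 0.039 and 0.045 with median, quantile and loess scaling. The log2 ratio of Thbs1, 4.39 as reported, was 3.94 with the floor at 76.8, 3.68 with the floor as a pseudocount, 3.76 with all its probe sets averaged and 4.69 with the probe set shared with Pald1, and its excess over the median receptor, 4.32 as reported, was 3.81, 3.61 and 4.62 in the first, second and last of these. The averaged values of Cd47 and Itgav were -0.41 and -0.34. Itgb3 had no value with the floor at 76.8 or with its probe sets averaged, since both signals were then under the floor, and was -0.023 with the floor at 62.4, a setting chosen after seeing the data. Related genes at least 2-fold higher, 0 as reported, numbered 8 with no floor, 2 (Ltbp3 and Thsd1) with only probe sets free of the _s, _x and _a suffixes and 1 (Tlr4) with probe sets averaged, and those lower, also 0, numbered 13 with no floor, 1 (Mmp9) with the pseudocount and 1 (Ltbp3) with probe sets averaged. Over all genes the counts higher and lower were 115 and 101 as reported, 1865 and 2116 with signals as deposited, 77 and 27 with the floor at 76.8, 83 and 45 with it at 62.4, 137 and 66 after quantile normalization, 136 and 71 after loess, and 167 and 157 with probe sets averaged. The cause of these shifts was not tested beyond the settings' own construction. Signals near the floor limit what can be said of Itgb3 and of the medium level of Thbs1.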

Other observations

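Of the related genes, 3 had a probe set that was at least 2-fold higher while their brightest probe set was within 2-fold, read after the values were seen. Ltbp3, a latent TGF-beta binding protein, had a ratio of 2.07 on 1418049_at (86.0 and 178), while its brightest probe set had a log2 ratio of 0.19. Edil3, a ligand of alpha v integrins, had a ratio of at least 2.56 on 1440674_at (2.37, under the floor, and 98.3), beside a log2 ratio of -0.24 on its brightest. Thsd1, an endothelial protein with a type 1 repeat, had a ratio of 2.04 on 1418205_at (40.0 and 81.7), beside -0.14. Which of these probe sets reads its gene better was not tested.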
